A study of Mus musculus with 6 samples.

Results

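The genes examined belong to microRNA maturation and silencing. They were the 4 Argonautes (Ago1 to Ago4), the 3 TNRC6 proteins (Tnrc6a, Tnrc6b and Tnrc6c) and the core processing genes Drosha, Dgcr8 and Dicer1. They were chosen by name, through probes whose annotation held exactly 1 symbol, and all 10 were found among the 19938 genes measured in that way. Their level was measured in N2A cells, a mouse neuroblastoma line, 72 h after transfection with either an shRNA construct against the unitary pseudogene Pbcas4 or a scramble control construct. Each construct had 3 arrays of the Affymetrix Mouse Gene 1.0 ST type. The methods describe triplicate transfections. Both constructs were short hairpins driven by a U6 promoter, so the control cells also carried a hairpin RNA and had been through the same lipid transfection. All groups are a single cell line with transient transfection, and the values are averages over transfected and untransfected cells. Pbcas4 itself was not analysed here.

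MicroRNAs are made in steps. In the nucleus Drosha, an RNase III enzyme, and its RNA-binding partner Dgcr8 form the Microprocessor, which cuts a hairpin out of the primary transcript. Exportin 5 (Xpo5) carries the hairpin to the cytoplasm, where Dicer1 removes the loop and the duplex is loaded into an Argonaute. The Argonaute, guided by the seed of the microRNA, binds messenger RNAs and recruits a TNRC6 (GW182) protein, which calls in deadenylases and decapping factors. Ago2 is the Argonaute known to cut a perfectly matched target. An shRNA transcribed in the nucleus skips Drosha and usually passes through Xpo5, Dicer1 and the Argonautes. Part of this machinery can thus serve both the microRNAs for which Pbcas4 was tested as a competitor and the tool used to deplete it.

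The hairpins are shown because an shRNA uses part of the machinery described here. They are the study's forward oligonucleotides, 5′ to 3′, with the loop in capitals. Which enzymes process these hairpins was not measured.
sh-pbcas4: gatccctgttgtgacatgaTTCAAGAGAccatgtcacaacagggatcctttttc
sh-scramble control: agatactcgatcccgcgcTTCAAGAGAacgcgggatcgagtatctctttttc
The arm before the loop had 19 bases in the Pbcas4 oligonucleotide and 18 in the scramble oligonucleotide. The longest stretch of it with an exact reverse complement after the loop was 18 and 17 bases, respectively.

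Values are normalized log2 expression as the authors deposited them, and a difference is the shRNA mean minus the scramble mean on that scale. The array medians over all 35556 probes lay between 7.75 and 7.86. Differences were tested with limma over all probes, two-sided and adjusted by Benjamini-Hochberg. Calls required an adjusted p under 0.05 and a difference over 0.5 in size. Scramble replicate 1 stood apart, since across all probes its r was 0.990 to 0.993 with the shRNA arrays but 0.987 to 0.988 with its fellow controls. Each of the 10 genes is therefore also given against it and against scramble replicates 2 and 3. All 9 measured neuroblastoma markers lay above the array medians in every array, but 8 of the 9 had a lower mean with the Pbcas4 shRNA (median difference -0.35, list mean 11.55 to 11.81 against 12.04 to 12.34, no overlap). None was called, and 4 had an unadjusted p under 0.05, against 11.7% of all genes and 18.5% of those with a mean at or above the median of all probes. All 4 were lower: Dbh (log2 difference -1.34) and Th (-1.08), enzymes of catecholamine synthesis, the granule protein Chgb (-1.01) and the neuronal Stmn2 (-0.35), with adjusted p values from limma of 0.297 to 0.433. The mean of each list of fibroblast, macrophage, epithelial and glial markers (6 genes each) lay below the median of all probes in every array (6.47 to 7.73). Single genes of the fibroblast (Col1a1, Col1a2 and Col3a1), epithelial (Krt8 and Cldn4) and glial lists (Mbp and Sox10) lay above the array medians in every array. By mean, all 6 fibroblast markers were higher in the shRNA arrays (median difference 0.068, list mean 7.63 to 7.73 against 7.32 to 7.64). The largest difference among them was that of Pdgfra (0.55, unadjusted p = 0.00519, adjusted p = 0.371 from limma), whose arrays did not overlap. What part the neuroblastoma or the fibroblast shift has in the differences below was not tested.

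None of the 10 genes was called by limma, and neither was any other gene (0% of 19938 genes). By mean, Ago1, Ago2, Drosha, Dgcr8 and Dicer1 lay higher in the Pbcas4 shRNA arrays, Ago3, Tnrc6a, Tnrc6b and Tnrc6c lay lower, and Ago4 was near 0. At an unadjusted p under 0.05 there were 4 of the 10 genes, against 11.7% of all genes. Of these, 3 had the higher mean in the shRNA arrays (Ago1, Ago2 and Dicer1, against 6.22% of all genes) and 1 the lower (Tnrc6c, against 5.46% of all genes). With a difference over 0.5 in size as well, Ago1 alone was left, against 3.71% of all genes. Brighter probes passed more often: of the 11454 genes whose mean was at or above the median of all probes, which include 9 of the 10 genes here, 18.5% had an unadjusted p under 0.05.

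The shRNA and scramble arrays did not overlap for 5 of the 10 genes, against 16.8% of all genes and 23.5% of the brighter ones. They were Ago1 and Ago2, higher in the shRNA arrays (9.13% of all genes), and Ago3, Tnrc6a and Tnrc6c, lower in them (7.63% of all genes). For Ago3 and Tnrc6a the gap between the conditions was only 0.011 and 0.0099 on the log2 scale, far less than the spread within a condition. Between arrays with the same replicate number, all 3 differences had the same sign for 9 of the 10 genes, Ago4 being the exception, against 37.4% of all genes and 50.1% of the brighter ones. The labels do not state that equal numbers mark a pair. Where the conditions do not overlap, as for the 5 genes named above, the same sign follows from that alone. For each of these 5 genes the two-sided exact permutation p was 0.1, the smallest that 3 arrays against 3 allow.

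**Figure D1:**
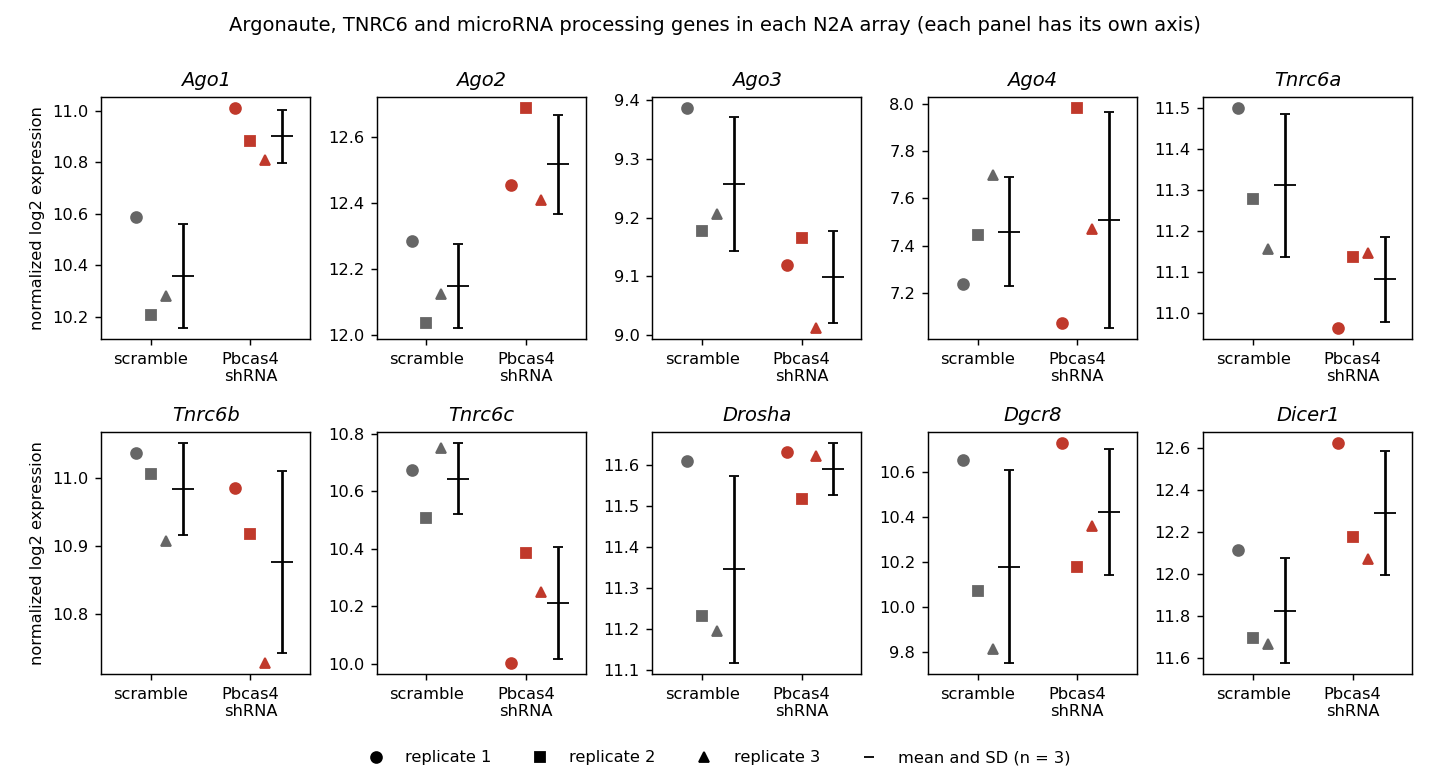
Normalized log2 expression of the 10 genes by array in N2A cells. Every symbol is 1 array, with the mean and SD of each condition drawn as bars on an axis fitted to that gene. The conditions are apart for Ago1 (shRNA 10.81 to 11.01, scramble 10.21 to 10.59) and Tnrc6c (shRNA 10.002 to 10.38, scramble 10.51 to 10.75), and mixed for Ago4, Tnrc6b, Drosha, Dgcr8 and Dicer1.

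Ago1 had the largest difference of the 10 genes. It was at 11.01, 10.88 and 10.81 in shRNA replicates 1, 2 and 3 and at 10.59, 10.21 and 10.28 in scramble replicates 1, 2 and 3. Every shRNA array lay above every scramble array, with a gap of 0.22 between the nearest pair. The means were 10.90 ± 0.10 (SD, n = 3) and 10.36 ± 0.20 (SD, n = 3), a log2 difference of 0.54 (standard error 0.13, 95% interval 0.24 to 0.84) or 1.46-fold on the linear scale. The unadjusted p was 0.00403 and the adjusted p from limma was 0.363. The shRNA mean lay 0.31 above scramble replicate 1 and 0.66 above the mean of scramble replicates 2 and 3. Leaving out any single array kept the difference between 0.47 and 0.66. With array weights Ago1 was called (log2 difference 0.57, adjusted p = 0.0185 from limma), in a fit that called 6.62% of all genes and whose weights did not converge.

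Ago2, the Argonaute that slices targets and the one an shRNA depends on for cleavage, was measured by 2 probes. The brighter probe was at 12.45, 12.69 and 12.41 in the shRNA arrays and at 12.28, 12.04 and 12.12 in the scramble arrays. The conditions did not overlap, and scramble replicate 1 was again the highest of the control arrays. The means were 12.52 ± 0.15 and 12.15 ± 0.13 (SD, n = 3 each), a log2 difference of 0.37 (standard error 0.11, 95% interval 0.09 to 0.64, unadjusted p = 0.0161, adjusted p = 0.421 from limma). The dimmer probe was at 11.44, 11.97 and 11.46 with the Pbcas4 shRNA, against 11.25, 11.13 and 11.35 with the scramble, and its log2 difference was 0.38. Here too each shRNA array lay above each scramble array. The shRNA mean of the brighter probe lay 0.23 above scramble replicate 1 and 0.44 above scramble replicates 2 and 3.

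Ago3 and Ago4 encode Argonautes that bind microRNAs but are not known as the main slicer. Ago3 was at 9.12, 9.17 and 9.01 in the shRNA arrays and at 9.39, 9.18 and 9.21 in the scramble arrays. Its log2 difference of -0.16 (standard error 0.10, 95% interval -0.39 to 0.07, adjusted p = 0.662 from limma) had the opposite sign to those of Ago1 and Ago2. The lower shRNA mean rested largely on scramble replicate 1, the highest array, since the difference was -0.29 against it and -0.09 against scramble replicates 2 and 3. Ago4 was at 7.07, 7.98 and 7.47 in the shRNA arrays and at 7.24, 7.44 and 7.70 in the scramble arrays. Its values lay around the median of all probes, the shRNA arrays held both its highest and its lowest value, and the log2 difference was 0.05 (standard error 0.24, 95% interval -0.53 to 0.63, adjusted p = 0.981 from limma). Against scramble replicate 1 it was 0.27 and against scramble replicates 2 and 3 it was -0.06. The interval is wide enough to hold a difference as large as that of Ago1.

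The genes for Ago3, Ago1 and Ago4 are neighbours on chromosome 4. In GRCm38.p6 they span chr4:126326994-126431670, chr4:126435012-126468707 and chr4:126489487-126533586, with 3342 bases between Ago3 and Ago1 and 20780 bases between Ago1 and Ago4. All are read from the minus strand. Ago1 therefore lay higher in the shRNA arrays between a neighbour with a lower mean and another with no clear difference. The 95% interval of the Ago3 difference held 0 (-0.39 to 0.07). The start regions of Ago1 (1 of its 2) and Ago3 are printed because the mean differences of these adjacent genes had opposite signs. Each holds 250 bases before the start and 50 after it (RefSeq, GRCm38.p6, minus strand, 5′ to 3′), and capitals mark GGGCGG, the core of a GC box, on either strand.
Ago1, chr4:126468534-126468833: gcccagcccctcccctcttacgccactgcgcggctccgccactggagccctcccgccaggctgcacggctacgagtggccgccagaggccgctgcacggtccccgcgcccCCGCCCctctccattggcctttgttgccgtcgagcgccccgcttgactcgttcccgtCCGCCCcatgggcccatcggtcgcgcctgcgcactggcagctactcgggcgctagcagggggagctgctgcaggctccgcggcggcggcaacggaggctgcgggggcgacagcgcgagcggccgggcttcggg
Ago3, chr4:126429493-126429792: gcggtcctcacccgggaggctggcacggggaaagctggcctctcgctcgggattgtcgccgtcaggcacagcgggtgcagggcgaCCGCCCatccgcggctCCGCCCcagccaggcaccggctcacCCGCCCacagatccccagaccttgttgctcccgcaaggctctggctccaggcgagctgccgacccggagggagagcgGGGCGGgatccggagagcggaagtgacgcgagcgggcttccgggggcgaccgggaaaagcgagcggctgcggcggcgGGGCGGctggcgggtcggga
The motif occurred 2 times in the Ago1 region and 5 times in the Ago3 region. What part these sites have in the differences was not tested. Of the 10 genes, 9 had a start region in the table (11 regions in all), and 6 of these 9 genes held GGGCGG on either strand, overlapping matches counted. By region, 7 of the 11 held it, against 35.7% of all 32851 regions of this length. The 7 include 2 overlapping regions of Ago1 that hold the same sites. The motif itself holds a CpG, and no share over regions of like CpG content was computed. The regions were rich in CpG, with 9 to 54 CpG dinucleotides in the 11 regions against a median of 7 and quartiles of 3 and 20 over all regions. Tnrc6a and Tnrc6b, with 9 to 18, were the poorest. No start region was available for Ago2, so its sequence was not searched.

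The TNRC6 proteins link an Argonaute to the deadenylases, and the mean of all 3 was lower in the shRNA arrays. Tnrc6c was at 10.002, 10.38 and 10.25 in the shRNA arrays and at 10.67, 10.51 and 10.75 in the scramble arrays. The conditions did not overlap, and the nearest arrays were 0.12 apart. The means were 10.21 ± 0.19 and 10.64 ± 0.12 (SD, n = 3 each), a log2 difference of -0.43 (standard error 0.13, 95% interval -0.74 to -0.13) or a factor of 0.741 on the linear scale. The unadjusted p was 0.0124 and the adjusted p from limma was 0.401. The difference was about the same against scramble replicate 1 as against the other controls, at -0.46 against scramble replicate 1 and -0.42 against scramble replicates 2 and 3. It was -0.50 without scramble replicate 2 and -0.38 without scramble replicate 3. Between arrays of the same number it was -0.67, -0.12 and -0.50.

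Tnrc6a, the founding GW182 gene, was at 10.96, 11.14 and 11.14 in the shRNA arrays and at 11.50, 11.28 and 11.15 in the scramble arrays. Scramble replicate 3 nearly touched the shRNA arrays, while scramble replicate 1 was the highest array. The log2 difference was -0.23 (standard error 0.12, 95% interval -0.51 to 0.05, adjusted p = 0.581 from limma), at -0.42 against scramble replicate 1 and -0.13 against the other two. Tnrc6b was at 10.98, 10.92 and 10.73 in the shRNA arrays and at 11.04, 11.01 and 10.91 in the scramble arrays. Its arrays overlapped, and the log2 difference of -0.11 (standard error 0.10, 95% interval -0.34 to 0.13, adjusted p = 0.825 from limma) was within the spread of the replicates, at -0.16 against scramble replicate 1 and -0.08 against scramble replicates 2 and 3. The mean over the 3 TNRC6 genes was 10.65, 10.81 and 10.71 with the Pbcas4 shRNA, against 11.07, 10.93 and 10.94 with the scramble, which left no overlap.

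**Figure D2:**
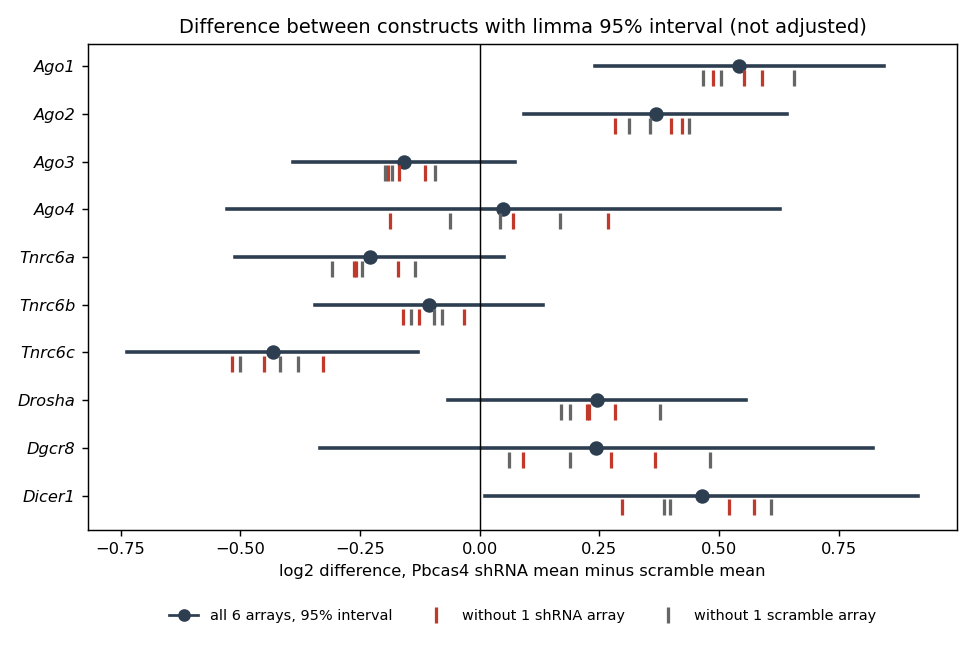
Log2 difference (shRNA mean minus scramble mean) of each of the 10 genes with its 95% interval from limma, not adjusted for the number of genes. Short ticks are the differences without 1 shRNA array or without 1 scramble array. The intervals of Ago1 (0.24 to 0.84), Ago2 (0.09 to 0.64), Dicer1 (0.01 to 0.92) and Tnrc6c (-0.74 to -0.13) lie to 1 side of 0, and only for Ago4 do the ticks lie on both sides.

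The processing genes Drosha, Dgcr8 and Dicer1 were all higher by mean in the shRNA arrays, and the arrays of the conditions overlapped for each. Dicer1 was at 12.63, 12.18 and 12.07 in the shRNA arrays and at 12.12, 11.70 and 11.67 in the scramble arrays. The first scramble replicate was just above the lowest shRNA array, and the other two control arrays lay well below. The means were 12.29 ± 0.29 and 11.83 ± 0.25 (SD, n = 3 each), a log2 difference of 0.46 (standard error 0.19, 95% interval 0.01 to 0.92) or 1.38-fold on the linear scale. The unadjusted p was 0.0458, the adjusted p from limma was 0.483 and the exact two-sided permutation p was 0.2. The shRNA mean lay 0.17 above scramble replicate 1 and 0.61 above the mean of scramble replicates 2 and 3. Between arrays of the same replicate number the difference was 0.51, 0.48 and 0.40, the most even of the 10 genes.

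Drosha was at 11.63, 11.52 and 11.62 in the shRNA arrays and at 11.61, 11.23 and 11.19 in the scramble arrays. The shRNA arrays were close together, scramble replicate 1 was among them, and scramble replicates 2 and 3 were lower. The log2 difference was 0.25 (standard error 0.13, 95% interval -0.07 to 0.56, adjusted p = 0.598 from limma), made up of -0.02 against scramble replicate 1 and 0.38 against scramble replicates 2 and 3. Dgcr8 was at 10.73, 10.18 and 10.36 in the shRNA arrays and at 10.65, 10.07 and 9.81 in the scramble arrays. Its standard error was as large as that of Ago4, with both arrays numbered 1 the highest of their condition. Its log2 difference was 0.24 (standard error 0.24, 95% interval -0.33 to 0.82, adjusted p = 0.837 from limma), at -0.23 against scramble replicate 1 and 0.48 against scramble replicates 2 and 3. Without scramble replicate 3 the difference of Dgcr8 was 0.062 and without scramble replicate 1 it was 0.48.

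The transcript of Dgcr8 is itself known to be a target of the Microprocessor, as it carries hairpins that Drosha cuts. These hairpins lie within the gene on chromosome 16 (minus strand, GRCm38.p6), and their mature arms are shown for that reason, 5′ to 3′, with the seed (bases 2 to 8) in capitals.
miR-1306-5p, chr16:18284288-18284310: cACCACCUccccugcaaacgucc
miR-1306-3p, chr16:18284248-18284268: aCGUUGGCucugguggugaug
miR-3618-5p, chr16:18284602-18284623: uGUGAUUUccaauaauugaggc
miR-3618-3p, chr16:18284562-18284583: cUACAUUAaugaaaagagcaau
No seed was shared among these arms. By condition mean Drosha and Dgcr8 differed by nearly the same amount (0.25 and 0.24). In single arrays both were high in the arrays numbered 1 of either construct and lower in scramble replicates 2 and 3. The gene of miR-185, which the study took as its example microRNA, lies 38150 bases beyond Dgcr8 on the same chromosome. Its probe was at 8.62, 8.37 and 8.52 with the Pbcas4 shRNA, against 8.37, 8.66 and 8.50 with the scramble, a difference of -0.00077 on the log2 scale (standard error 0.11, adjusted p = 0.999 from limma). The probe of miR-665 differed by -0.035 (standard error 0.086, adjusted p = 0.958 from limma). The conditions overlapped for both. Which form of the microRNA such a probe detects was not tested.

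The array-by-array pattern of several of these genes ran beside that of cell division. The mean of 18 measured mitosis genes was 11.99, 11.87 and 11.83 with the Pbcas4 shRNA, against 11.87, 11.10 and 10.71 with the scramble. The mean of 20 DNA replication genes was 11.75, 11.50 and 11.53 against 11.63, 10.69 and 10.17. Scramble replicate 1 thus lay among the shRNA arrays for both lists. It did so for Drosha, Dgcr8 and Dicer1 as well. For Ago1 and Ago2 it was the highest control array but lay below every shRNA array. Scramble replicate 1 was the highest control array for 8 of the 10 genes, against 34.0% of all genes and 45.7% of the brighter ones, and these 8 include Ago3, Tnrc6a and Tnrc6b, where it lay farther from the shRNA arrays, not nearer. The part of cell division in these differences was not tested.

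**Figure D3:**
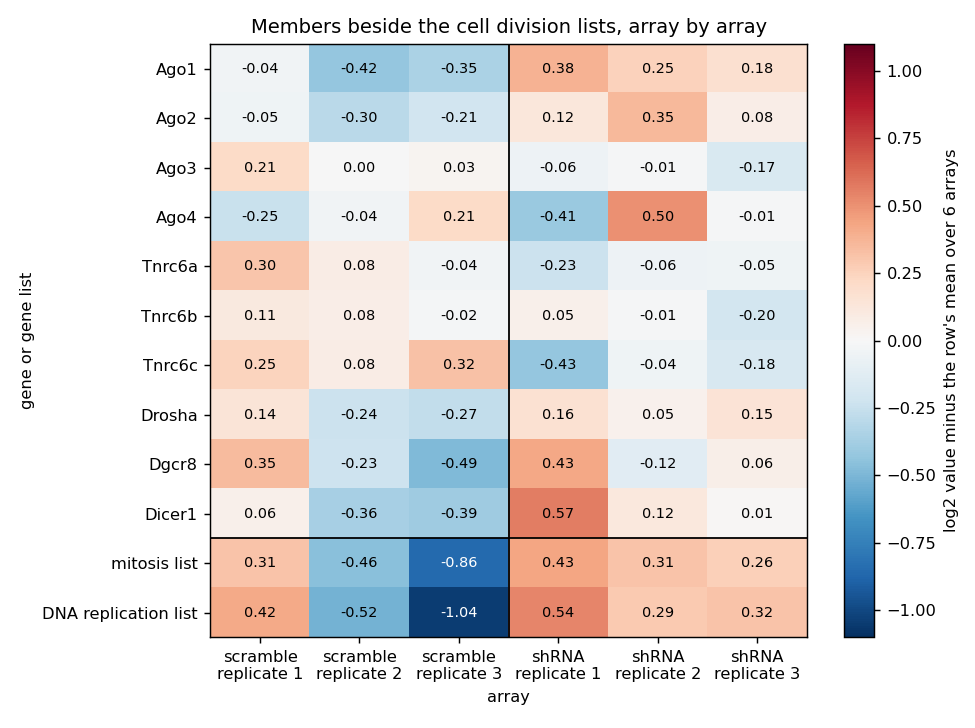
Each of the 10 genes and the means of the mitosis and DNA replication lists in each array, as the log2 value minus the mean of the row over the 6 arrays (red above, blue below). Scramble replicate 1 is at 0.31 for the mitosis list and at 0.14, 0.35 and 0.06 for Drosha, Dgcr8 and Dicer1, beside -0.04 for Ago1 and 0.25 for Tnrc6c.

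By Pearson's r over the 6 arrays, which also holds the difference between the constructs and is given as a description with no test, the genes most like Ago2 were Bbof1, Pla2g12a and Map3k4 (r = 0.997, 0.997 and 0.996). Those most like Dicer1 were Smad2, Dcaf10 and Togaram1 (r = 0.998, 0.997 and 0.997). None of these 6 genes was called. The log2 difference was 0.55 for Bbof1 and 0.50 for Dcaf10.

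The wider pathway was described with 7 lists holding 84 symbols, of which 77 were measured by a probe with exactly 1 symbol. By limma 0 of the 77 were called, and at an unadjusted p under 0.05 there were 14, of which 11 were higher and 3 lower in the shRNA arrays. That is 18.2% of the 77, against 11.7% of all genes and 18.5% of the brighter genes. These shares of all and of brighter genes also stand beside the counts of the single lists below. The mean was higher in the shRNA arrays for 60 of the 77, against 51.0% of all genes, and the median difference was 0.10, against 0.0031 over all genes. Of the 77 genes, 47 were highest in scramble replicate 1 among the control arrays, against 34.0% of all genes and 45.7% of the brighter ones. The arrays of the conditions did not overlap for 22 of the 77, against 16.8% of all genes and 23.5% of the brighter ones. These were 19 higher (9.13% of all genes) and 3 lower (7.63% of all genes).

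Upstream, Xpo5, the exportin that carries precursors and shRNAs out of the nucleus, was at 11.76, 11.65 and 11.70 in the shRNA arrays and at 11.61, 11.25 and 11.24 in the scramble arrays (a difference of 0.34, standard error 0.12, unadjusted p = 0.0306, adjusted p = 0.458 from limma). Tarbp2, the double-stranded RNA-binding partner of Dicer1, was at 10.94, 10.95 and 11.06 against 10.83, 10.42 and 10.17 (a difference of 0.51 on the log2 scale, standard error 0.17, unadjusted p = 0.0215, adjusted p = 0.431 from limma). In neither gene did the conditions overlap, and in both scramble replicate 1 was nearest to the shRNA arrays. Tsn, a subunit of the translin complex that removes the passenger strand, had a log2 difference of 0.36 (unadjusted p = 0.0120, adjusted p = 0.401 from limma). Mov10, a helicase that binds Argonautes, lay lower: it was at 10.69, 10.94 and 10.67 in the shRNA arrays and at 10.87, 11.42 and 11.49 in the scramble arrays, with scramble replicate 1 below shRNA replicate 2 (a log2 difference of -0.49 with a standard error of 0.18, adjusted p = 0.459 from limma). In this list of export and loading partners 4 of 12 genes had an unadjusted p under 0.05, 3 higher and 1 lower, against 11.7% of all genes and 18.5% of the brighter ones. Its gene with the highest mean, the chaperone Hsp90aa1, differed by -0.01.

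Of 8 Microprocessor cofactors 1 had an unadjusted p under 0.05. This was Khsrp, a KH-domain protein that binds precursors such as those of let-7, with a log2 difference of 0.25 (adjusted p = 0.468 from limma). The helicase Ddx5, with the highest mean of the list, differed by -0.07. Among 10 genes of let-7 control, tailing and decay, 1 had an unadjusted p under 0.05 and 9 had a higher mean. Trim71 (Lin41), a ubiquitin ligase and a classical let-7 target, was at 9.99, 9.87 and 9.98 in the shRNA arrays and at 9.59, 9.29 and 9.20 in the scramble arrays. The conditions did not overlap, with a gap of 0.28 between the nearest arrays (log2 difference 0.59, standard error 0.12, unadjusted p = 0.00228, adjusted p = 0.348 from limma). The shRNA mean lay 0.36 above scramble replicate 1 and 0.70 above scramble replicates 2 and 3. Lin28b, the RNA-binding protein that blocks let-7 maturation, named here after its values were seen, was at 10.27, 9.67 and 9.66 against 9.80, 9.13 and 8.79, and the conditions overlapped (a log2 difference of 0.63 with a standard error of 0.29, adjusted p = 0.531 from limma). Its paralog Lin28a, likewise named afterwards, had a difference of 0.13. Tent2, a poly(A) polymerase and the gene with the highest mean of the list, differed by 0.11.

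Downstream, the deadenylase list had 15 measured genes, of which 1 was higher and 2 were lower at an unadjusted p under 0.05. Pan2, the catalytic partner of the PAN complex that TNRC6 proteins recruit, had a log2 difference of 0.32 (adjusted p = 0.450 from limma). Cnot7, a catalytic subunit of CCR4-NOT, had one of -0.32 (adjusted p = 0.472 from limma). Its shRNA arrays (12.37, 12.01 and 11.97) all lay below its scramble arrays (12.40, 12.49 and 12.43). The scaffold Cnot1, with the highest mean of the list, differed by 0.16. Btg2, an antiproliferative cofactor of the deadenylases, had the largest difference in the pathway: it was at 7.77, 8.70 and 8.60 in the shRNA arrays and at 8.73, 9.93 and 9.42 in the scramble arrays (a difference of -1.002 on the log2 scale, standard error 0.36, unadjusted p = 0.0292, adjusted p = 0.450 from limma). The conditions did not overlap, but the highest shRNA array and scramble replicate 1 were almost level. The difference was -0.38 against scramble replicate 1 and -1.32 against scramble replicates 2 and 3.

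Of 15 decapping and P-body genes 13 had a higher mean, against 51.0% of all genes. At an unadjusted p under 0.05 there were 4, all higher, against 11.7% of all genes and 18.5% of the brighter ones. These were the decapping cofactor Dcp1a (log2 difference 0.35), the scaffold Patl1 (0.28), the translational repressor Lsm14a (0.26) and the enhancer of decapping Edc3 (0.22), with adjusted p values from limma of 0.421 to 0.484. Pabpc1, the poly(A)-binding protein and the brightest probe of that list, differed by 0.05. Among 10 genes of the FMRP family and other 3′ binding proteins, the FMRP relative Fxr2 had an unadjusted p under 0.05 (log2 difference 0.32, adjusted p = 0.431 from limma), and Elavl1, the gene with the highest mean, differed by 0.08. The PIWI clade list served as a list from another tissue. It holds the PIWI genes Piwil1, Piwil2 and Piwil4 and other germline genes (Ddx4, Mael, Tdrd1 and Mov10l1). None of its 7 genes had an unadjusted p under 0.05, its array means of 6.30 to 6.48 lay below the median of all probes, and its differences ran from -0.083 to 0.092.

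**Figure D4:**
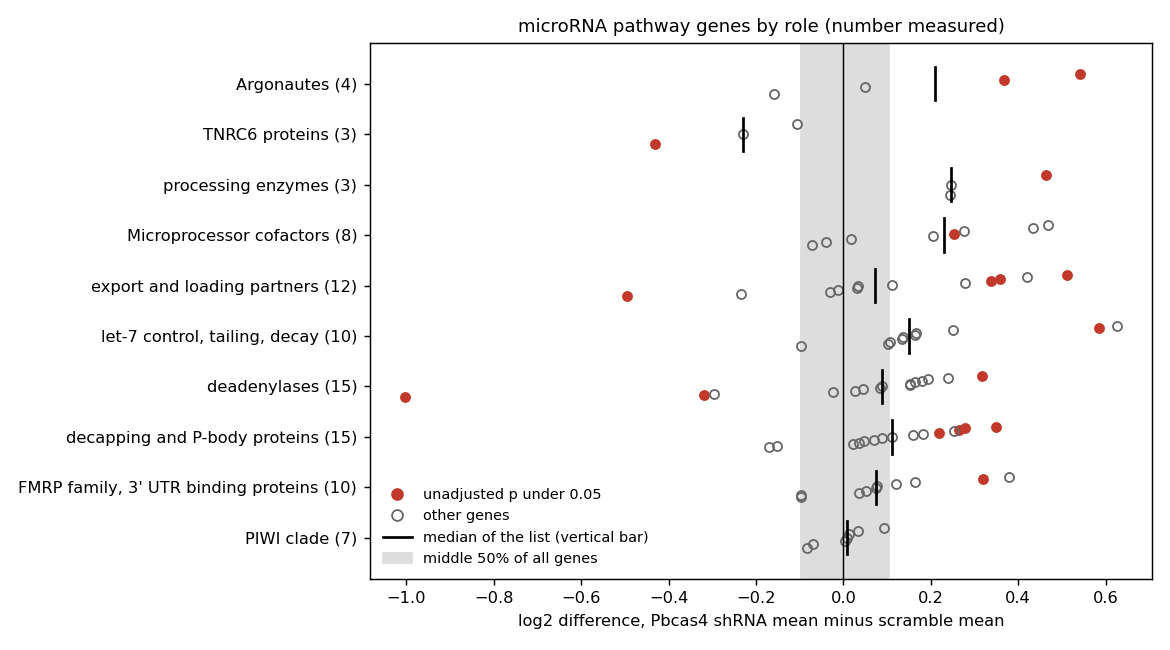
Log2 difference (shRNA mean minus scramble mean) of the 10 genes and of 77 other genes of the pathway, grouped by role, with the number measured in parentheses. Filled points have an unadjusted p under 0.05, vertical bars are list medians and the grey band holds the middle 50% of all genes (-0.098 to 0.11). The TNRC6 median is -0.23 and the PIWI clade list lies within the band. The medians of the Argonautes and of Drosha, Dgcr8 and Dicer1 (drawn as processing enzymes) are 0.21 and 0.25.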

How the data were processed

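RNA from N2A cells was hybridised to Affymetrix Mouse Gene 1.0 ST arrays, 6 in all and 3 per construct, with 200 ng of RNA per array. The deposited values are log2 expression per probe, which the authors had summarized and normalized between arrays; the method is not given in the sources used here. They ran from 2.30 to 15.0, above what natural logarithms of scanner intensities reach. No further normalization was applied, and no arrays were identical.

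Of 35556 probes, 21789 carried exactly 1 symbol, 1621 several and 12146 none. Each gene was represented by its probe with the highest mean. limma 3.58.1 (R 4.3.3, lmFit and eBayes) was fitted over all probes with a term for the construct and checked on simulated data; p-values were adjusted by Benjamini-Hochberg. The study's methods name limma and an adjusted p under 0.05, and their variance criterion of 0.5 was read as a log2 difference over 0.5. The paper reported differentially expressed genes by its criteria, whereas no gene was called in the main fit here. The cause of that difference was not tested. Start regions and microRNA arms came from RefSeq (GRCm38.p6), hairpins from the study's oligonucleotide list. The labels do not tie the arrays to separate cultures, so p-values measure the spread between these arrays, which may be technical in part.

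Genes named were the 10 chosen, and of each pathway list the gene with the highest mean and up to 4 at an unadjusted p under 0.05; the 3 genes most like Ago2 and Dicer1 were also named. The members, lists and tests were chosen with earlier results of these data known. The deviations of arrays with the same replicate number from their condition means were positively correlated (r = 0.291, 0.137 and 0.103 across probes). However, shRNA replicate 2 had a higher r with scramble replicate 3 (0.199) than with scramble replicate 2 (0.137), and the labels state no pairing. That the number pairs the arrays was therefore an assumption, which these correlations do not settle. The number was also fitted as a block on that assumption. The other alternatives were quantile normalization, median centring, a trended and robust variance, array weights, a filter on dim probes, probe means and leaving out arrays. The number of arrays limits the precision.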

Additional observations from a re-analysis of the deposited data

How the results depend on the processing

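The direction of the difference was kept under all 14 alternatives for each of the 10 genes but Ago4, which reversed without scramble replicate 1 (-0.062) and without shRNA replicate 2 (-0.19), and whose 13 alternatives do not include the filter on dim probes, which removed it. Leaving out 1 array gave 0.47 to 0.66 for Ago1, 0.28 to 0.44 for Ago2, -0.20 to -0.09 for Ago3, -0.19 to 0.27 for Ago4, -0.31 to -0.13 for Tnrc6a, -0.16 to -0.03 for Tnrc6b, -0.52 to -0.33 for Tnrc6c, 0.17 to 0.38 for Drosha, 0.062 to 0.48 for Dgcr8 and 0.30 to 0.61 for Dicer1. The count of these genes at an unadjusted p under 0.05 was 2 to 6 (4 with all arrays), lowest without scramble replicate 2 and highest without scramble replicate 1. That of the pathway genes was 3 to 24 (14 with all arrays); with the share of all genes in the same fit beside it, it was 3 without scramble replicate 3 (6.03%), 4 without scramble replicate 2 (5.33%), 5 without shRNA replicate 3 (6.42%), 7 without shRNA replicate 2 (9.89%), 9 without shRNA replicate 1 (10.7%) and 24 without scramble replicate 1 (19.4%). It was 27 without both arrays numbered 1 (21.2%). With all arrays and a difference over 0.5 in size as well, 1 of the 10 genes and 3 of the 77 pathway genes were left, against 3.71% of all genes.

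Array weights were the exception among the settings, as they called 1 of the 10 genes, Ago1 (log2 difference 0.57, adjusted p = 0.0185 from limma, and 0.0616 to 0.866 over its other alternatives), and 4 pathway genes, Tarbp2, Mov10, Trim71 and Btg2. At an unadjusted p under 0.05 there were then 7 of the 10 genes and 33 pathway genes, against 32.6% of all genes, and 6.62% of all genes were called. That fit weighted shRNA replicate 3 by 5.32 and scramble replicate 2 by 2.39, against 0.353 to 0.875 for the others, and the estimation of the weights stopped before it converged; the cause was not tested. With the replicate block, 0 of 19938 genes were called, 4 of the 10 genes and 18 pathway genes had an unadjusted p under 0.05 (14.6% of all genes), and no call changed. Quantile normalization and median centring moved the median of all genes to 0.014 and 0.029 and turned no direction of the 10 genes.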
